A study of Mus musculus with 8 samples.

Results

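The genes of the cardiac natriuretic peptide system were followed through the first days after myocardial infarction (MI) in the mouse left ventricle. They are 7 genes chosen by symbol: the peptide genes Nppa and Nppb, the receptor genes Npr1, Npr2 and Npr3, and the protease genes Corin and Furin. All 7 were found among the 24062 genes in the count tables, and all 7 passed the filter on low counts. Left ventricular free wall of male C57BL/6 mice aged 8 to 12 weeks gave the total RNA. The groups were MI at 3 days, sham surgery at 3 days, MI at 1 day and sham surgery at 1 day, with 2 mice in each. MI was made by tying off the left anterior descending coronary artery, and the labels name no engineered allele. Each library is 1 mouse; A and B name the 2 libraries of a group by the place of their count columns.

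Natriuretic peptides are hormones that heart muscle releases when it is stretched or injured. They lower blood pressure by promoting the loss of sodium and water and by relaxing vessels. Nppa encodes atrial natriuretic peptide (ANP), which the healthy adult heart makes mainly in the atria, and Nppb encodes brain natriuretic peptide (BNP), which the stressed ventricle makes in quantity. Both peptides are cut out of longer precursors: corin, a serine protease on the cardiomyocyte surface, cleaves pro-ANP, and furin, a protease of the secretory route, can cleave pro-BNP. ANP and BNP bind the receptor guanylate cyclase encoded by Npr1, which makes cyclic GMP. The related receptor encoded by Npr2 prefers C-type natriuretic peptide, and the receptor encoded by Npr3 removes all of these peptides from the circulation.

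Nppb and Nppa lie side by side on chromosome 4 and are read in the same direction. In GRCm38.p6, the assembly of mm10, Nppb spans chr4:147985786-147987205 and Nppa spans chr4:148000722-148002074, with 13516 bases between them. The window around each start site is shown because, against sham, Nppb was called higher in MI at 1 day and Nppa at 3 days. Each runs for 300 bases, with 250 before and 50 after the start site, on the plus strand, as RefSeq annotates it in GRCm38.p6 (Nppa chr4:148000472-148000771, Nppb chr4:147985650-147985949). Capitals mark matches, on either strand, to short motifs of cardiac transcription factors: GATAA for GATA factors, AAGTG for Nkx2-5 and CATTCC for TEAD factors.
Nppa: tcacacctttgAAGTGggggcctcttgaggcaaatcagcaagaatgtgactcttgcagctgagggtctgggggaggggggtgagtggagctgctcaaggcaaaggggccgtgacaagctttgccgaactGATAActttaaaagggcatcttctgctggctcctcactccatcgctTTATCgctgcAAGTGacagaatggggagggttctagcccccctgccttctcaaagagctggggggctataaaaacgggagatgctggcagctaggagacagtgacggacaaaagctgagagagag
Nppb: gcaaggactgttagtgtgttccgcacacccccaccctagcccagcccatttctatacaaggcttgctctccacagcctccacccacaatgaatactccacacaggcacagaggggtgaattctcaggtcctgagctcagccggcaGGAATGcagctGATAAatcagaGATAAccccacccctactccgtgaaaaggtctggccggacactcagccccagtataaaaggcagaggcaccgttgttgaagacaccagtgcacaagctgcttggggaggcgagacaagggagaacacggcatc
The window of Nppa is set on the first base of the gene, and that of Nppb on a start site at 147985900, which lies 114 bases inside the annotated span of the gene. Each window held 2 GATAA matches, at 121 and 75 bases before the start site used for Nppa and at 94 and 83 bases before the one used for Nppb. AAGTG matched at 239 and 65 bases before that of Nppa. CATTCC matched once, on the minus strand, at 105 bases before that of Nppb. Of all 32851 mouse promoter windows of this length, 25.4% held GATAA, 46.4% held AAGTG and 14.7% held CATTCC, so these matches are common and only describe the sequence. The windows of Npr1, Npr2, Npr3 and Corin held none of the 3 motifs, and Furin held 5 AAGTG matches in 1 of its 2 windows. No member's window held the AP-1 site TGANTCA, present in 7.81% of windows, or an exact CArG box, present in 1.63%. The CArG pattern was CCWWWWWWGG, with W for A or T, and sites with a mismatch were not sought.

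The libraries differed in ways that bear on all values below. They held 21055785 and 25041386 gene counts in MI at 3 days, 18831791 and 19845961 in sham at 3 days, 12662237 and 7382490 in MI at 1 day, and 20676514 and 20120257 in sham at 1 day. Levels are CPM, the counts of a gene per 1000000 counts of its scaled library, given as mean ± SD (n = 2), and 3 counts equal 0.102 to 0.369 CPM. Olfactory and vomeronasal receptor genes, which the heart should barely use, had a count for 92.2% of 1453 genes in MI library B at 1 day. The share was 23.5% in MI library A and 50.9% and 5.02% in sham libraries B and A at 1 day, and 4.06 to 7.91% in the libraries of 3 days, so values of the members at 1 day are also given without MI library B where a call or a sign changes. Summed over 14 cardiomyocyte markers, 9996 and 9877 CPM remained in MI at 3 days, against 136588 and 199458 CPM in sham. At 1 day the sums were 114115 and 120598 CPM in MI and 215936 and 189918 CPM in sham. In bulk tissue, fewer cells of a type and less RNA per cell cannot be told apart. The column names hold sample numbers that run together in each group and apart between groups, with those of MI at 1 day furthest from the rest. A batch that coincides with surgery or day therefore cannot be told apart from MI, from time or from the difference of the effects.

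The question of the comparison with sham at each day is how the peptide system moved after the injury. At 3 days after MI, Nppa had risen 3.05-fold and Corin had fallen 15.6-fold, with Npr2 and Npr1 also lower. At 1 day Nppb had risen 5.45-fold while Corin and Npr2 were lower. In the edgeR quasi-likelihood test, with Benjamini-Hochberg adjusted p under 0.05 over 15508 genes, 1 member was called higher and 3 lower at 3 days, where 31.7% of all genes tested were called higher and 23.7% lower. At 1 day 1 member was called higher and 2 lower, where 19.3% of genes were called higher and 19.7% lower. The median log2 fold change of the 7 members was −0.83 at 3 days and −0.09 at 1 day, against 0.16 and 0.12 for all genes.

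**Figure D1:**
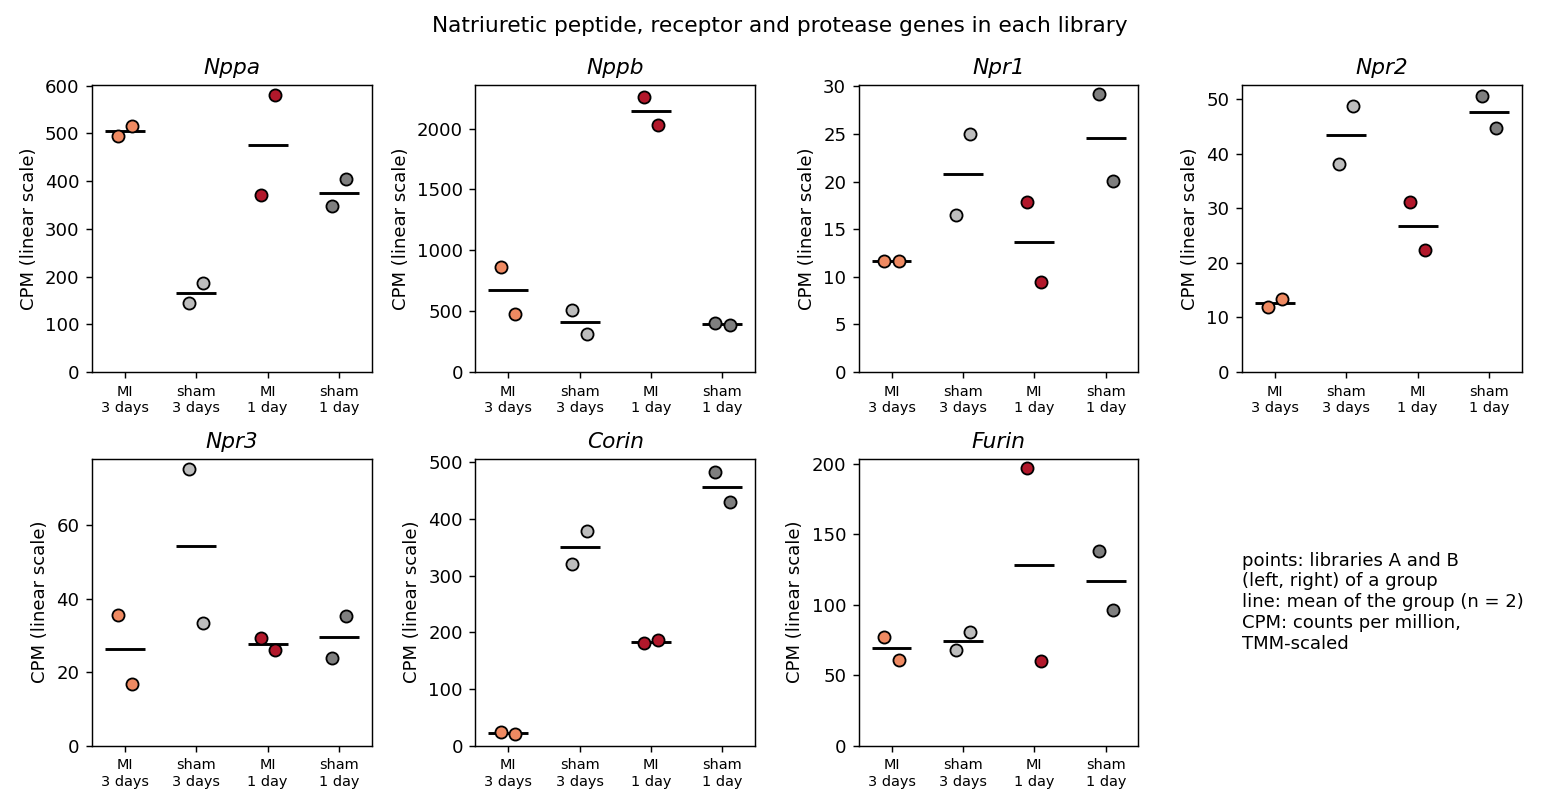
CPM after scaling (linear vertical axes that start at 0) of the 7 genes in each library, with MI left of sham at each day and a line at the mean of each group (n = 2). Nppb is highest in both MI libraries at 1 day, at 2261 and 2027 CPM, and Corin lowest in both MI libraries at 3 days, at 23.4 and 21.6 CPM.

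Nppb, the BNP gene, reached 2261 and 2027 CPM in the MI libraries at 1 day, against 404 and 383 CPM in sham. Both MI libraries stood far above both sham libraries. On the log2 scale the change was 2.45 (SE 0.31, adjusted p = 0.000482), and it was 2.52 (adjusted p = 0.00211) without MI library B. At 3 days Nppb was at 866 and 480 CPM in MI and 507 and 316 CPM in sham. These groups overlapped, since MI library B lay below sham library A. The log2 fold change of 0.71 (SE 0.29, adjusted p = 0.0645) did not pass the threshold, nor did it in 13 of 15 alternatives. Over all 15 it ranged between 0.0109 and 1.09, the highest without sham library A. When scaled to library size alone it was 0.96 (adjusted p = 0.0165). Between the MI groups, Nppb averaged 673 ± 273 CPM at 3 days and 2144 ± 165 CPM at 1 day (log2 fold change −1.67, SE 0.30, adjusted p = 0.00158). Of the 7 members, 3 were called lower and 0 higher in MI at 3 days than in MI at 1 day, where 22% of all genes were called lower, 23.4% higher and 45.4% either way.

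Nppa, the ANP gene, was at 495 and 515 CPM in MI at 3 days, against 144 and 187 CPM in sham. The MI libraries lay close together and well above both sham libraries, and the log2 fold change was 1.61 (SE 0.23, adjusted p = 0.000285). At 1 day Nppa was at 372 and 580 CPM in MI and 348 and 404 CPM in sham. The groups overlapped, as MI library A fell between the sham libraries. On the log2 scale Nppa stood at 0.34 (SE 0.23, adjusted p = 0.263), and 1 library decided it: it was −0.01 (adjusted p = 0.963) without MI library B and 0.53 (adjusted p = 0.0371) without MI library A.

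The effect of MI differed between the days for both peptide genes, in opposite directions. For Nppb the effect at 3 days minus that at 1 day was −1.74 (SE 0.41, adjusted p = 0.0149), and for Nppa it was 1.27 (SE 0.32, adjusted p = 0.0196). In this test 1 member was called higher and 2 lower, where 13.2% of all genes were called higher and 11.3% lower. For Nppb the MI groups moved while the sham groups averaged 412 ± 135 CPM at 3 days and 394 ± 14.7 CPM at 1 day. For Nppa the sham means stood apart, with 165 ± 30.2 CPM at 3 days and 376 ± 39.5 CPM at 1 day, while the MI groups averaged 505 ± 13.6 CPM at 3 days and 476 ± 147 CPM at 1 day. The Nppa call of a difference was lost without sham library B of 1 day (adjusted p = 0.0784), MI library A of 3 days (0.101) or MI library B of 3 days (0.129), and with transcript reads (0.0704). The Nppb call was lost without sham library A of 1 day (0.0816), sham library B of 1 day (0.105) or sham library A of 3 days (0.0759).

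Between the sham groups, the log2 fold change of Nppa, 3 days against 1 day, was −1.18 (SE 0.23). The unadjusted p was 0.000542, the 9th smallest of all genes, but the adjusted p was 0.631. None of the 7 members, 0% of all genes, was called in this comparison by edgeR, in which 1211 genes (7.81%) had an unadjusted p under 0.05. DESeq2 called 43 genes, Nppa among them (adjusted p = 0.00302), and limma-voom called 0. Markers of atrial muscle moved with Nppa in the sham groups. The 8 markers summed to 77.7 and 86.1 CPM in sham at 3 days and 195 and 158 CPM in sham at 1 day. Myl7, the atrial light chain, averaged 1.44 CPM in sham at 3 days and 27.3 CPM in sham at 1 day. In MI the atrial sum was 50.02 and 45.7 CPM at 3 days and 63.7 and 153 CPM at 1 day, the higher value in library B, which also had the more Nppa. Of the 8 markers, Sln was at 0 in MI library B at 3 days and MI library A at 1 day, and Bmp10 at 0 in both MI libraries at 3 days, sham library B at 3 days, MI library A at 1 day and sham library A at 1 day. At 3 days Nppa was higher in MI while the atrial sum was lower in MI, but the list went both ways: of 7 markers tested, Gja5 (1.03, adjusted p = 0.0185) and Dkk3 (1.57, adjusted p = 0.0216) were called higher, and Kcna5 (−1.54, adjusted p = 0.00362) and Stard10 (−2.90, adjusted p = 1.38e-05) lower. The part of atrial tissue in the Nppa levels of 1 day was not tested.

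The ratio of the peptide genes was taken in each library. Counts of Nppb per count of Nppa were 6.08 and 3.497 in the MI libraries at 1 day, against 1.16 and 0.949 in sham. At 3 days they were 1.75 and 0.932 in MI and 3.52 and 1.69 in sham. Only at 1 day did the MI and sham libraries not overlap. The smallest two-sided p of an exact permutation test of 2 against 2 libraries is 0.33, and the ratios are given as values with no test. Per kilobase of transcript, where genes can be compared, Nppb averaged 862 ± 350 CPM per kb in MI and 527 ± 173 in sham at 3 days, and 2745 ± 211 in MI and 504 ± 18.8 in sham at 1 day. On the same scale Nppa averaged 584 ± 15.8 in MI and 191 ± 34.9 in sham at 3 days, and 550 ± 170 in MI and 434 ± 45.7 in sham at 1 day. An antisense gene, Gm13054, overlaps Nppa (chromosome 4, 148001090 to 148004014), and the sources used here do not give the strand setting of the counting. In the transcript tables it held 0 to 29 reads per library, at most 1.36% of the Nppa reads of the library.

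Npr1, the guanylate cyclase receptor of ANP and BNP, was low throughout, with 77 to 503 counts per library. It was at 11.6 and 11.6 CPM in MI at 3 days, against 16.5 and 25.0 CPM in sham. At 1 day Npr1 was at 17.8 and 9.47 CPM in MI and 29.2 and 20.1 CPM in sham. On each day both MI libraries lay below both sham libraries. Npr1 differed by −0.83 on the log2 scale (SE 0.32, adjusted p = 0.0476) at 3 days, just past the threshold, and −0.81 (SE 0.34, adjusted p = 0.0822) at 1 day. The call at 3 days was lost in 7 of 15 alternatives, among them leaving out sham library B of 3 days (−0.49, adjusted p = 0.381) and scaling to library size alone (−0.56, adjusted p = 0.112). DESeq2 called Npr1 lower at 1 day as well (adjusted p = 0.0455), as did the fit without MI library A (−1.47, adjusted p = 0.0110), while without MI library B the value was −0.46 (adjusted p = 0.290).

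Npr2, the receptor that prefers C-type natriuretic peptide, fell on both days. It was at 11.9 and 13.4 CPM in MI at 3 days, against 38.1 and 48.7 CPM in sham. At 1 day Npr2 was at 31.2 and 22.3 CPM in MI and 50.7 and 44.7 CPM in sham. The groups did not overlap on either day. Npr2 had a log2 change of −1.78 (SE 0.23, adjusted p = 0.000120) at 3 days, a 3.43-fold lower level, and −0.82 (SE 0.23, adjusted p = 0.0183) at 1 day. The call at 3 days was kept in 15 of 15 alternatives. The call at 1 day was lost without MI library B (−0.61, adjusted p = 0.0527), sham library A (0.131) or sham library B (0.0640), and with library size alone (0.0560). The difference of the effects, −0.96 (SE 0.32, adjusted p = 0.0538), did not pass the threshold. It passed in 4 of 14 alternatives: DESeq2 (adjusted p = 0.0206), RLE size factors (0.0368), library size alone (0.0342) and the fit without MI library B of 1 day (−1.17, adjusted p = 0.0121). Between the MI groups Npr2 averaged 12.6 ± 1.05 CPM at 3 days and 26.7 ± 6.29 CPM at 1 day (log2 fold change −1.09, SE 0.23, adjusted p = 0.00439). Spag8, which overlaps Npr2, had 1 to 9 counts per library.

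Npr3, the clearance receptor, varied widely within groups. It was at 35.5 and 16.9 CPM in MI at 3 days and 75.1 and 33.3 CPM in sham. At 1 day Npr3 was at 29.3 and 26.1 CPM in MI and 23.8 and 35.2 CPM in sham. The groups overlapped on both days. The log2 fold change was −1.05 (SE 0.42, adjusted p = 0.0558) at 3 days and −0.09 (SE 0.44, adjusted p = 0.890) at 1 day. At 3 days it passed the threshold in 5 of 15 alternatives, among them DESeq2 (−1.18, adjusted p = 0.0157). Over all 15 it ranged between −1.89, without MI library A, and −0.35. In the mouse heart Npr3 is a known marker of endocardium. Without Npr3 itself, 5 endocardial markers summed to 123 and 103 CPM in MI and 78.5 and 57.1 CPM in sham at 3 days, and to 62.7 and 50.4 CPM in MI and 64.7 and 51.8 CPM in sham at 1 day, and none was at 0 in any library. At 3 days 2 of these 5 were called higher, Plvap (2.01, adjusted p = 0.00195) and Cdh11 (1.31, adjusted p = 0.00586), and 1 lower, Cytl1 (−3.13, adjusted p = 0.000220).

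Corin, the protease that activates ANP, had the lowest log2 fold change of the 7 members on each day. It was at 23.4 and 21.6 CPM in MI at 3 days, against 321 and 379 CPM in sham. The log2 fold change at 3 days was −3.96 (SE 0.19, adjusted p = 1.26e-06), a level 15.6-fold lower. At 1 day it was at 181 and 186 CPM in MI, against 483 and 430 CPM in sham. Corin had a log2 change of −1.31 (SE 0.17, adjusted p = 0.000501), a level 2.49-fold lower. The libraries of a group lay close together, and the groups did not overlap on either day. The effect at 3 days was larger than that at 1 day by −2.65 (SE 0.24, adjusted p = 0.000166), and MI at 3 days stood 8.17-fold below MI at 1 day (log2 fold change −3.03, SE 0.18, adjusted p = 5.55e-06). These calls were kept in 15 of 15 alternatives for each day and for the MI groups, and in 14 of 14 for the difference. Between the sham groups Corin averaged 350 ± 40.9 CPM at 3 days and 456 ± 37.6 CPM at 1 day, with an adjusted p of 0.631.

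Furin, a convertase of many precursor proteins besides pro-BNP, was not called on either day. It was at 77.3 and 60.7 CPM in MI and 68.2 and 80.9 CPM in sham at 3 days. At 1 day Furin was at 197 and 60.3 CPM in MI and 138 and 96.1 CPM in sham, so that the MI libraries stood on either side of both sham libraries. The log2 fold change was −0.11 (SE 0.43, adjusted p = 0.844) at 3 days and 0.15 (SE 0.43, adjusted p = 0.807) at 1 day. With 1 MI library at 1 day the value took the sign of the library kept: 0.75 (adjusted p = 0.0387) without library B and −1.05 (adjusted p = 0.0106) without library A. The reads of Furin were also divided differently among its transcripts. ENSMUST00000122232, of 4286 bases, took 41.5 and 45.1% of the Furin transcript reads in MI and 57.2 and 41.2% in sham at 3 days, and 33.1 and 11.6% in MI and 73.8 and 74.2% in sham at 1 day. ENSMUST00000146771, of 5736 bases, took 42.3 and 39.9% in MI and 27.9 and 37.5% in sham at 3 days. At 1 day it took 42.8 and 58.9% in MI and 13.1 and 15.99% in sham, so its share also differed between the sham groups. The sources used here do not say how reads shared by transcripts were assigned; these shares are a description.

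**Figure D2:**
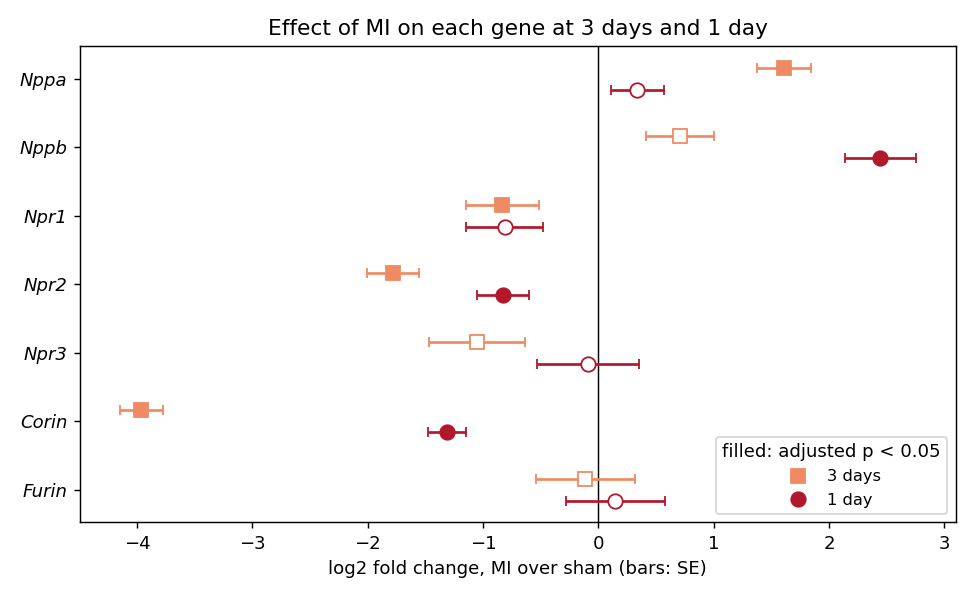
Log2 fold change of MI over sham for each gene (horizontal axis; bars are the SE of the edgeR fit), at 3 days (squares, above) and 1 day (circles, below); filled symbols have an adjusted p under 0.05. Nppa lies at 1.61 at 3 days and 0.34 at 1 day, Nppb at 0.71 and 2.45, and Corin at −3.96 and −1.31.

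Set against the cardiomyocyte markers of the same library, the members fell into different patterns. Corin had 2.34 and 2.18 CPM per 1000 CPM of the 14 summed markers in MI at 3 days, and 2.35 and 1.90 in sham. At 1 day it had 1.59 and 1.54 in MI and 2.24 and 2.26 in sham. Its level per marker was thus 1.06 times that of sham at 3 days and 0.696 times that of sham at 1 day, whereas the markers themselves were 16.9-fold and 1.73-fold lower in MI. Nppa had 49.6 and 52.1 CPM per 1000 marker CPM in MI at 3 days, against 1.05 and 0.936 in sham, a ratio of 51.1. Nppb had 86.6 and 48.6 in MI at 3 days against 3.71 and 1.59 in sham, a ratio of 25.5, and 19.8 and 16.8 in MI at 1 day against 1.87 and 2.02 in sham, a ratio of 9.42. Per marker, Nppb in MI was therefore higher at 3 days than at 1 day, although its CPM was lower. The lower marker sum enters this ratio, as Nppb CPM at 3 days was 1.63-fold that of sham and was not called. For the genes that other cells of the heart also express, the same ratio at 3 days was 15.3 for Furin, 9.52 for Npr1, 7.35 for Npr3 and 4.86 for Npr2, and at 1 day it was 1.94, 0.976, 1.598 and 0.974 for the same genes. The mean CPM of each of these genes was lower in MI than in sham at 3 days. As arithmetic, their ratios above 1 at 3 days thus come from the lower marker sum and not from a higher CPM. These ratios are a description with no test, and they rest on which markers are summed. Ttn, the gene of the giant sarcomere protein titin, made up 43.9% of the sum in MI and 45.6% in sham at 3 days, and 57.0% in MI and 39.4% in sham at 1 day, when it was not called (−0.26, adjusted p = 0.569). Without Ttn, the other 13 markers were 16.4-fold lower in MI at 3 days and 2.43-fold lower at 1 day. The ratio for Corin was then 1.06 at 3 days and 1.01 at 1 day. That 1-day mean joined MI libraries on either side of both sham libraries. Without Ttn, Corin had 3.10 in MI library A and 4.36 in MI library B, against 3.80 and 3.61 in sham at 1 day. The ratio for Nppa became 50.2 and that for Nppb 26.7 at 3 days, and that for Nppb 13.5 at 1 day. At 1 day those for Npr1 and Npr2 became 1.33 and 1.36, and those for Npr3 and Furin 2.30 and 2.53.

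**Figure D3:**
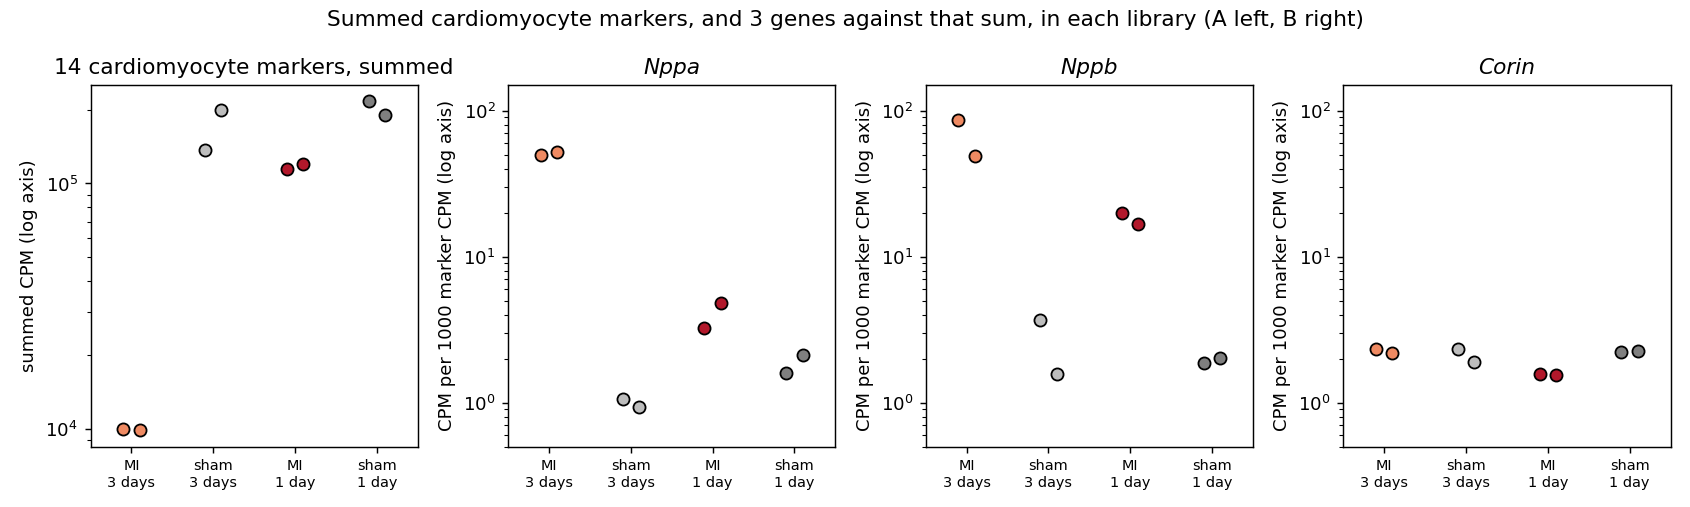
Summed CPM of 14 cardiomyocyte markers and CPM of Nppa, Nppb and Corin per 1000 marker CPM, in each library (log axes), with MI left of sham at each day. Nppa and Nppb stand above sham in MI on both days, at 49.6 and 52.1 for Nppa in MI at 3 days, while Corin lies between 1.54 and 2.35 in all 8 libraries.

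Markers of other cells moved with MI at the same time. At 3 days 12 of 12 monocyte and macrophage markers were called higher and 14 of 14 cardiomyocyte markers lower. Of all genes, 31.7% were called higher and 23.7% lower on that day. Other lists were mixed at 3 days: 6 of 10 fibroblast markers were called higher and 1 lower. Of 10 endothelial markers 3 were called higher and 2 lower, and of 9 smooth muscle and pericyte markers 4 and 4. Of 10 neutrophil markers 8 were called higher and 0 lower, and of 10 cardiomyocyte stress markers 1 and 5. The macrophage markers summed to 12760 and 11508 CPM in MI and 1750 and 917 CPM in sham at 3 days. At 1 day 10 of 10 neutrophil markers were called higher, with sums of 2690 and 1409 CPM in MI and 239 and 182 CPM in sham. On that day 12 of 14 cardiomyocyte markers were called lower, where 19.3% of all genes were called higher and 19.7% lower. Of 12 monocyte and macrophage markers 6 were called higher and 2 lower at 1 day, and of 10 endothelial markers 5 and 1. Of 10 fibroblast markers 0 were called higher and 5 lower, of 9 smooth muscle and pericyte markers 0 and 2. Of 10 cardiomyocyte stress markers 5 were called higher and 2 lower. In the 9 lists, the markers at 0 in any library were Sln and Bmp10. The part of these cells in the levels of Npr1, Npr2, Npr3 and Furin was not tested.

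The authors' deposited table gave the same directions for the 7 members on both days, once its 3-day values, which are sham over MI, are turned round. As MI over sham, that table gives −4.11 for Corin and 1.43 for Nppa at 3 days, and 2.34 for Nppb at 1 day. It also gives adjusted p = 0.00157 for Npr1 and 0.0116 for Npr3 at 3 days and 0.0604 for Npr2 at 1 day, so Npr3 is called there and Npr2 at 1 day is not.

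Beyond the 7 members, 77 genes of the surrounding pathway were listed by role, of which 74 were in the tables and 55 were tested. At 3 days 9 of the 55 rose and 25 fell, where 31.7% of all genes were called higher and 23.7% lower, with a median log2 fold change of −0.38, against 0.16 for all genes. At 1 day 7 rose and 12 fell, where 19.3% of all genes were called higher and 19.7% lower, with a median of −0.01, against 0.12 for all genes. For the difference of the effects 4 were called higher and 11 lower, where 13.2% and 11.3% of all genes were. Of the 19 called at 1 day, 16 were also called in the same direction without MI library B of that day, and Hand2, Pde1a and Nppc were not. That count became 39 without MI library A, 9 without sham library A or sham library B, and 12 without either MI library of 3 days. The count of 15 for the difference became 26 without MI library B of 1 day, 8 and 7 without sham libraries A and B of 1 day, 9 without MI library B of 3 days and 8 without sham library B of 3 days.

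Most transcription regulators of the peptide genes were lower at 3 days after MI. Of 21 tested, 1 rose and 15 fell at 3 days (median −1.36), against 23.7% of all genes called lower. At 1 day 1 rose, 7 fell and 13 were not called (median −0.26), against 19.7% of all genes called lower. Tbx5, a T-box factor that works with Nkx2-5 on the Nppa promoter, was at 0.713 ± 0.383 CPM in MI and 15.01 ± 0.408 CPM in sham at 3 days (log2 fold change −4.42, SE 0.43, adjusted p = 2.43e-05). Irx4, a homeobox factor of the ventricle, fell by 4.04 on the log2 scale (SE 0.30, adjusted p = 5.41e-06) at 3 days and fell by 1.77 (SE 0.27, adjusted p = 0.00124) at 1 day. Nkx2-5, the cardiac homeobox factor, averaged 28.8 ± 9.56 CPM in MI and 79.5 ± 7.44 CPM in sham at 1 day (log2 fold change −1.45, adjusted p = 0.00215). The single rise at 3 days was Nfatc4, a factor activated by calcineurin (0.78, SE 0.26, adjusted p = 0.0305). The single rise at 1 day was Tead4, a factor that binds CATTCC, at 11.5 ± 6.63 CPM in MI and 4.31 ± 2.19 CPM in sham (1.47, SE 0.49, adjusted p = 0.0397). At 3 days Nppa was called higher while 15 of these 21 regulators were called lower. The list does not separate activators from repressors of the peptide genes. The summed cardiomyocyte markers were 16.9-fold lower in the same libraries.

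The convertases other than furin gave 0 rises and 2 falls among 6 tested at 3 days, and 0 rises and 1 fall at 1 day, where 23.7% and 19.7% of all genes were called lower. Pcsk6, the convertase that activates corin in the mouse heart, was at 14.8 ± 1.48 CPM in MI and 111 ± 37.6 CPM in sham at 3 days (log2 fold change −2.90, SE 0.33, adjusted p = 5.91e-05). At 1 day it was at 23.9 ± 11.5 CPM in MI and 103 ± 5.16 CPM in sham (−2.08, SE 0.33, adjusted p = 0.00136). Pcsk4, at under 2 CPM in each group, changed by −2.07 (SE 0.75, adjusted p = 0.0390) at 3 days. In the granule list 5 of 7 genes were too low to test. Pam, an amidating enzyme abundant in the membranes of atrial granules, was at 377 ± 16.8 CPM in MI and 1156 ± 4.32 CPM in sham at 3 days (−1.62, SE 0.16, adjusted p = 2.30e-05) and fell by 0.80 (SE 0.15, adjusted p = 0.00342) at 1 day.

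Among 6 tested genes of peptide degradation, 2 rose and 1 fell at 3 days, and 1 rose and 1 fell at 1 day, where 55.4% and 39% of all genes were called either way on those days. Mme, which encodes neprilysin, the main enzyme that degrades natriuretic peptides, was at 8.93 ± 0.248 CPM in MI and 30.3 ± 10.5 CPM in sham at 3 days (−1.76, SE 0.35, adjusted p = 0.00181). At 1 day it was at 8.79 ± 4.62 CPM in MI and 26.8 ± 6.70 CPM in sham (−1.67, SE 0.39, adjusted p = 0.00874). Fap, a serine protease of activated fibroblasts, rose at 3 days by 2.82 (SE 0.36, adjusted p = 0.000119), and Ece2, an endothelin-converting enzyme, by 1.48 (SE 0.24, adjusted p = 0.000599). Ece1, the related enzyme, rose at 1 day by 0.94 (SE 0.31, adjusted p = 0.0391).

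Among 14 tested genes that carry or remove the cyclic GMP signal, 5 rose and 6 fell at 3 days, and 3 rose and 2 fell at 1 day, against the same 55.4% and 39% of all genes called either way. The phosphodiesterases, which break down cyclic nucleotides, moved both ways. Pde1a was at 105 ± 4.98 CPM in MI and 17.6 ± 6.98 CPM in sham at 3 days, or 2.57 on the log2 scale (SE 0.30, adjusted p = 6.80e-05). Pde1c was at 17.9 ± 2.92 CPM in MI and 130 ± 2.41 CPM in sham at 3 days, or −2.87 (SE 0.20, adjusted p = 3.87e-06). Pde3a, an enzyme that cyclic GMP inhibits, fell by 0.99 (SE 0.22, adjusted p = 0.00643) at 1 day, and Pde1b rose at 1 day by 2.91 (SE 0.40, adjusted p = 0.000749). Prkg2, a cyclic GMP-dependent kinase, rose at 3 days by 4.19 (SE 0.78, adjusted p = 0.00115), where it was at 4.54 ± 1.52 CPM in MI and 0.240 ± 0.114 CPM in sham. Vasp, a substrate of such kinases, rose at 1 day by 1.23 (SE 0.36, adjusted p = 0.0252). Cnga3, a cyclic nucleotide-gated channel subunit, fell by 4.92 (SE 0.61, adjusted p = 8.00e-05) at 3 days and fell by 2.47 (SE 0.54, adjusted p = 0.00582) at 1 day. Of 5 genes tested for soluble guanylate cyclase and nitric oxide synthases, 1 was called on each day, against the same shares of all genes. It was Nos2, the inducible synthase, which rose by 1.71 (SE 0.55, adjusted p = 0.0251) at 3 days and 3.01 (SE 0.60, adjusted p = 0.00417) at 1 day. Without MI library B the 1-day values were 3.36 for Nos2, 1.61 for Nos3, −1.44 for Gucy1a2, −0.32 for Gucy1b3 and −0.20 for Gucy1a3. With that library they were 3.01, 1.06, −0.63, 0.17 and 0.05 in the same order. Nos3 and Gucy1a2 thus changed more without that library, and Gucy1b3 and Gucy1a3 changed sign. The number of genes of this list called at 1 day therefore depended on that library.

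**Figure D4:**
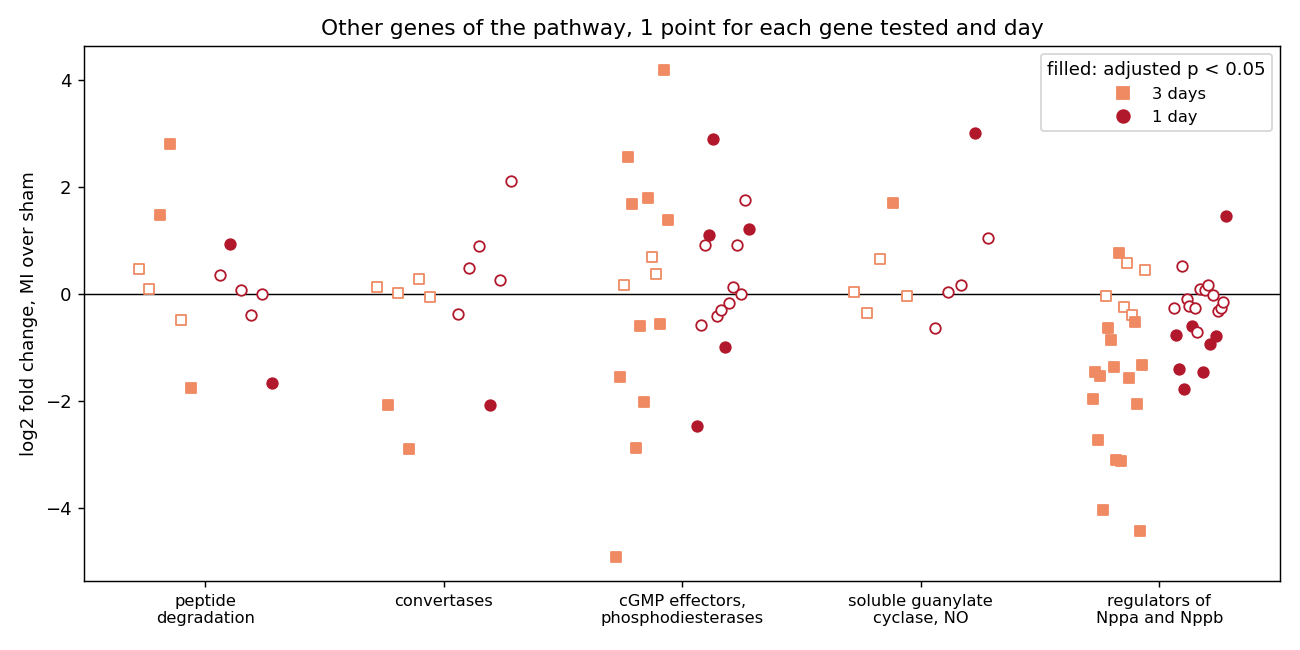
Log2 fold change of MI over sham (vertical axis) for each gene tested in 5 of the pathway lists, at 3 days (squares, left) and 1 day (circles, right) in each column; filled symbols have an adjusted p under 0.05. In the column of regulators of Nppa and Nppb, 15 of 21 genes are called lower at 3 days and 7 of 21 at 1 day.

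Nppc, the gene of C-type natriuretic peptide and so of the preferred ligand of the Npr2 receptor, was close to the limit of detection. It had 1 and 0 counts in MI and 2 and 2 in sham at 3 days, and 7 and 18 counts in MI and 0 and 3 in sham at 1 day. Summed per group and scaled for library size, the ratio at 1 day was 14.1, with a 95% counting interval of 4.31 to 73.0. The edgeR log2 fold change at 1 day was 3.74 (SE 1.17, adjusted p = 0.0236), and 2.63 (adjusted p = 0.145) without MI library B, the library with counts in 92.2% of the chemosensory genes. Ostn, the gene of osteocrin, another ligand of the Npr3 receptor, had at most 11 counts in a library and was not tested.

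By Pearson correlation of log2 CPM over the 8 libraries, the genes most like each member were sought among the 9379 genes that averaged 10 CPM or more, leaving out symbols of the Gm and Rik kinds. The libraries fall into 4 groups, so these coefficients largely describe group differences, and they are given without a test. Corin was followed most closely, by Sgca, a sarcoglycan of the muscle membrane, Ppm1l and Slc47a1, each with r = 0.999. The genes most like Nppb were Sema6d (0.984), Cd33 (0.982) and Pgf, a placental growth factor gene (0.979). The genes most like Nppa were Sra1 (0.916), Copa (0.913) and Snrpa (0.905), so no gene tracked Nppa as closely. The closest genes to Npr1 were Arid1b (0.990), Man2c1 (0.986) and Polg (0.984), those to Npr2 were Entpd4 (0.997), Dnajb2 (0.996) and Ppp6r2 (0.996), and those to Npr3 were Car8 (0.919), Hsd11b1 (0.884) and Unc13b (0.879). Closest to Furin were Dnm2 (0.982), Tcf25 (0.981) and Fbxw11 (0.976). Among the members themselves, Npr2 and Corin were the most alike (r = 0.967), while Nppa correlated with Corin at −0.542 and with Npr3 at −0.726.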

How the data were processed

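Total RNA of the left ventricle was taken with a miRNeasy kit and, once ribosomal RNA was removed, read from both ends on an Illumina HiSeq2500, per the labels' protocols. Per the submitters' processing notes, the build was mm10 and the tools were DESeq2, HTSeq, TopHat2 2.0.14, Bowtie2 2.2.5, SAMtools 0.1.2 and FastQC, in an order not stated; the sources used here do not give the annotation or strand setting. The authors deposited raw read counts per gene, a table for each day, per the file headers. Their count columns carry no replicate number, and the 2 sham columns of 1 day share a name, so A and B follow column order. The authors also deposited DESeq2 tables of the log2 fold change and standard error of each gene, an adjusted p-value and a mean of normalised counts (a signal), per the file headers. The 3-day fold changes there are sham over MI, as the counts showed. Transcript tables, per the file headers, give total read counts and lengths per transcript; their sham libraries of 1 day were matched to A and B by column order, and their RPKM values were not used here.

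Counts of the 24062 genes in both tables were filtered with filterByExpr over the 4 groups, which left 15508, normalised by TMM and fitted by group over all 8 libraries in edgeR 4.0.16 (R 4.3.3; robust quasi-likelihood, common dispersion 0.0602, 4 residual degrees of freedom). All libraries were fitted together so that the groups of 2 share 1 estimate of the spread. P-values of the two-sided quasi-likelihood F test had Benjamini-Hochberg adjustment over all genes fitted, and 0.05 was the threshold. The SE is the log2 fold change divided by the square root of F. CPM use the TMM-scaled library sizes, and log2 CPM a prior count of 2. The script was tested on simulated counts. With 2 mice per group the p-values measure the spread between few animals, and limits from low counts cover counting error only. Alternatives were DESeq2 1.42.0, limma-voom (limma 3.58.1), other scalings, no filter, fits of 1 day or surgery, transcript reads and leaving out each library.

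The members and the gene and marker lists were chosen with earlier results of these data known. Named beyond the members were, for each pathway list and day, the 2 largest rises and 2 largest falls among called genes, Nppc, and the 3 genes nearest each member in correlation; the genes beside the Nppb and Nppa pair are not reported here, and other genes named were chosen after their values were seen. Nkx2-5, Pde1b, Pde3a and Vasp are given only for the day on which the rule names them. Gene positions and promoter windows are RefSeq's in GRCm38.p6; all 7 members matched a window. A genome of another build and protein sequences were not used here.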

Additional observations from a re-analysis of the deposited data

Results flagged for a closer look

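The effect of MI differed between the days for 3 of the 7 members by the test of the difference itself. For Corin the effect at 3 days minus that at 1 day was −2.65 on the log2 scale (SE 0.24, adjusted p = 0.000166). For Nppb it was −1.74 (SE 0.41, adjusted p = 0.0149), and for Nppa 1.27 (SE 0.32, adjusted p = 0.0196). The Nppa difference lay beside a sham level of 165 CPM at 3 days and 376 CPM at 1 day, while the MI means of 505 CPM at 3 days and 476 CPM at 1 day differed by 0.09 on the log2 scale (SE 0.23, adjusted p = 0.778).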

How the results depend on the processing

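No paired analysis was possible because the count columns carry no replicate number. Over 35 results of the members and 518 alternatives, 451 kept direction and side of the threshold, 18 fell back over it, 19 passed it and 30 changed sign; with a library left out, the lone library of its group is assumed to vary like the others. No result that changed sign was called by edgeR as set out above with all libraries in place. Furin between the MI groups (−0.91, adjusted p = 0.114) was called by DESeq2 (−1.001, adjusted p = 0.0455), with transcript reads (−1.14, adjusted p = 0.0468) and without MI library B at 1 day (−1.51, adjusted p = 0.00120). The cause was not tested. Nppb at 1 day, Nppa and Npr2 at 3 days, and Corin on both days and in the difference kept their calls in all alternatives. The values that changed sign with another method follow. Nppa, 3 days against 1 day after MI, was −0.0216 with DESeq2, −0.0206 with RLE size factors and −0.13 with transcript reads. Under limma-voom Furin at 1 day was −0.0376 and the Npr1 difference 0.0148; with no filter the Npr1 difference was 0.0725. With library size alone, Npr3 at 1 day was 0.19, Furin at 3 days 0.15, Npr3 between the MI groups 0.0806 and Npr2 between the sham groups 0.0549; Npr3 between the MI groups was also 0.0468 with no filter. That scaling raised the median of all genes by 0.26 at 3 days and 0.28 at 1 day, and the share of calls that were rises at 1 day to 67.9%, against 49.5%. With libraries left out in turn, values at 1 day ranged between −0.0139 and 0.53 for Nppa, −0.40 and 0.16 for Npr3 and −1.05 and 0.75 for Furin, and Furin at 3 days between −0.51 and 0.0280. The differences ranged between −0.37 and 0.42 for Npr1 and −0.86 and 0.72 for Furin. Between the MI groups Nppa ranged between −0.28 and 0.44, Npr1 between −0.62 and 0.22, Npr3 between −0.84 and 0.22 and Furin between −1.51 and 0.12. Between the sham groups Nppb ranged between −0.29 and 0.38, Npr1 between −0.57 and 0.0738 and Npr2 between −0.31 and 0.0533. The number of members called at 1 day ranged between 2 and 6 and for the difference between 1 and 4, and DESeq2 called 1 member between the sham groups. The number of pathway genes called ranged between 9 and 39 at 1 day and between 7 and 26 for the difference. Without the myosin heavy chains, levels per 1000 marker CPM became 54.8 in MI and 1.17 in sham at 3 days and 2.28 in sham at 1 day for Nppa, 20.6 in MI and 2.37 in sham at 1 day for Nppb, and 2.44 in MI and 2.50 in sham at 3 days and 1.76 in MI and 2.74 in sham at 1 day for Corin. Without titin, an alternative added after seeing the data, they became 90.6 in MI and 1.80 in sham at 3 days and 9.98 in MI and 3.07 in sham at 1 day for Nppa, 122 in MI and 4.55 in sham at 3 days and 43.1 in MI and 3.20 in sham at 1 day for Nppb, and 4.04 in MI and 3.82 in sham at 3 days and 3.73 in MI and 3.71 in sham at 1 day for Corin. Depth limits Nppc, Ostn and Npr1, the last with 77 counts in MI library B at 1 day.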
